A study of Zea mays with 6 samples.

Results

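A maize pollen grain holds a large vegetative cell, which grows the pollen tube, and the sperm cells that the tube carries to the embryo sac. Transcripts of a mature grain come mostly from the vegetative cell, and sperm transcripts are read against that pool. The transcripts described here are mgs1 (GRMZM2G317406), a male gametophyte gene known as pollen-specific, and hap2 (GRMZM2G412911), which encodes the gamete fusion protein of sperm cells, studied above all in Arabidopsis and in protists, where it drives the merging of gamete membranes. They are 2 of the 39625 gene models measured, and they were picked by identifier, with earlier results of these data known. The RefSeq gene table pairs both identifiers with these symbols and gives no description of either product.

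RNA was sequenced from mature pollen of the inbred line B73, in 3 heat and 3 control libraries described as biological replicates. In the heat group, plants whose pollen had reached the tetrad stage, when the products of meiosis are still joined, spent 48 h under day and night temperatures of 35 and 25 °C. Control plants stayed under day and night temperatures of 25 and 21 °C, and humidity was 60% in both groups. Both groups then returned to the greenhouse until the pollen ripened, so the heat had ended well before collection.

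Levels are in TPM, a unit that divides reads by gene length and fixes the sum of each library. Reads per library, rebuilt from the TPM values, numbered 19086616 to 19745003 in heat and 20978451 to 28640667 in control. Heat replicates 1 and 2 were sequenced on lanes 1 and 2, and heat replicate 3 and all 3 controls on lanes 3, 4 and 5. No library was within sampling noise of another of its group. In bulk pollen, fewer cells of a type and less RNA per cell cannot be told apart.

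The first question was how the members stand in the profile of ripe pollen. mgs1 was the most abundant transcript of all by mean level, at 18415 TPM over the 6 libraries. In heat it had 18093, 19097 and 18133 TPM in replicates 1, 2 and 3. In control it had 18625, 18478 and 18065 TPM in replicates 1, 2 and 3. Heat replicate 2 was highest and control replicate 3 lowest, and the groups overlapped, with heat replicate 2 above all controls and the other heat libraries within the control range. These values rest on 204699 to 309936 mgs1 reads per library. The mgs1 gene model is 939 bases long as rebuilt from the values.

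mgs1 made up 1.84% ± 0.057 of all TPM in heat and 1.84% ± 0.029 in control (SD, n = 3 each; exact permutation test, two-sided, p = 0.8, where 3 libraries against 3 cannot go below 0.1). It ranked 1 in heat replicates 1 and 2 and in control replicate 1, and 2 in heat replicate 3 and control replicates 2 and 3. The gene models above it were GRMZM2G175243 in heat replicate 3, with 18602 TPM, and GRMZM2G172664 in control replicates 2 and 3, with 22760 and 18277 TPM. The table used gives GRMZM2G175243 no gene name and GRMZM2G172664 the name IDP455, and it describes neither.

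hap2 stood far lower but well inside the range of measured genes. It had 7.99, 7.38 and 6.88 TPM in heat replicates 1, 2 and 3. Control replicates 1, 2 and 3 had 7.32, 5.78 and 7.47 TPM. Heat replicate 1 was highest and control replicate 2 lowest, and control replicates 1 and 3 lay among the heat libraries. The values come from 443, 409 and 379 reads in heat and 594, 388 and 440 reads in control, spread over a gene model of 4581 bases.

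**Figure D1:**
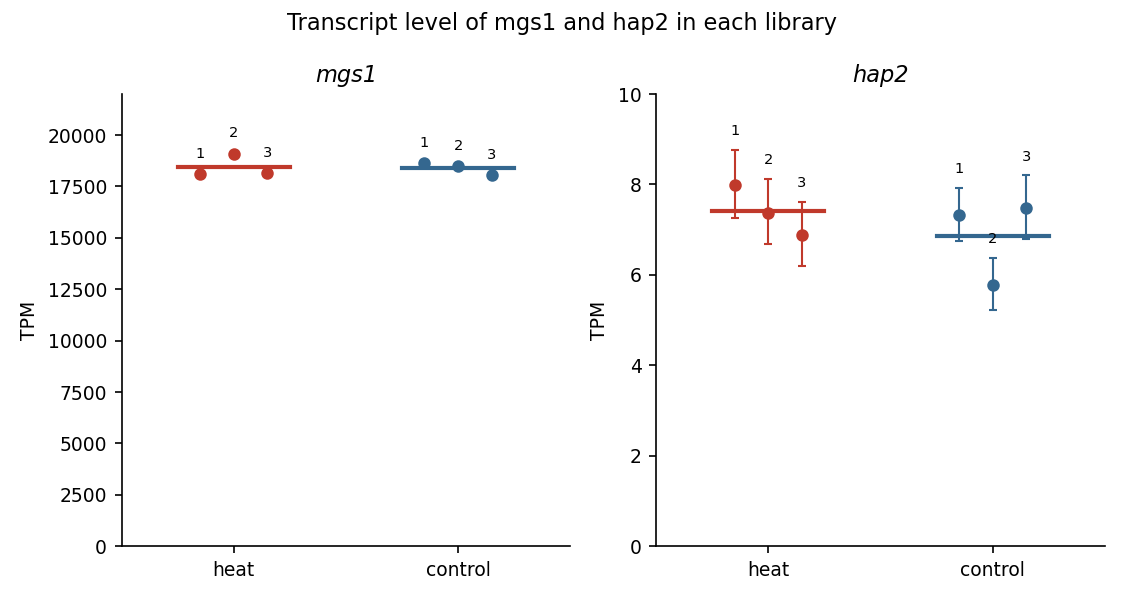
TPM of mgs1 (left) and hap2 (right) in each heat and control library, with points numbered by replicate, bars for the exact 95% Poisson interval of the reads and a horizontal line for the group mean. The groups overlap for both genes, and the hap2 value of control replicate 2 (5.78 TPM) lies below all the others.

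The rank of hap2 by TPM was 3219, 3400 and 3434 in heat replicates 1, 2 and 3, against 3324, 3596 and 3274 in control replicates 1, 2 and 3. This placed it above 81.7% to 82.9% of the gene models detected in a heat library and above 81.5% to 83.7% of those in a control library. The mean rank differed by -47 between heat and control (exact permutation test, two-sided, p = 0.8). Its share of TPM was 0.000742% ± 0.000055 in heat and 0.000686% ± 0.000094 in control (SD, n = 3 each; exact permutation test, two-sided, p = 0.5).

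The members were compared with lists of marker genes, matched by symbol, for pollen, sperm cells and other tissues. All 17 matched gene models of the pollen and pollen tube list, mgs1 included, reached 1 TPM in every library, and they summed to 58783 to 62425 TPM in heat and 58255 to 60717 TPM in control. mgs1 was 2.23 times the next member, pme1 (GRMZM2G125356), a pectin methylesterase gene of the cell wall, and 2.44 times prf2 (GRMZM2G109842), which encodes an actin-binding profilin. Its namesake mgs2 (GRMZM2G080056) was 3.53 times lower by mean level, EXPB9 (GRMZM2G072886), a beta-expansin gene of wall loosening, 5.81 times lower, and prf1 (GRMZM2G074361), another profilin gene, 7.20 times lower.

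hap2 was the most abundant of the 3 gene models matched in the sperm cell list. The other matches were both for cenH3, the centromeric histone found in all dividing cells and kept in sperm, at a mean of 1.13 TPM (GRMZM2G157596) and 0.0874 TPM (GRMZM2G158526). The symbols listed for GEX, DMP, DUO1 and phospholipase genes of sperm matched no gene model, and those genes were not analysed here. On TPM, hap2 lay above each of the matched markers of other tissues that were kept. The symbol tip2 of the tapetum list also matched the aquaporin gene TIP1-2 (GRMZM2G168439, mean 140.9 TPM), which was left out, after the match was seen, as another gene of the same symbol. The highest mean was 2.39 TPM among 5 models of the tapetum and anther wall and 0.639 TPM among 13 of green tissue. It was 0.281 TPM among 7 of the female gametophyte and 4.16 TPM among 10 of endosperm and embryo. In the same order these lists held 23, 31, 9 and 20 symbols, and genes of symbols without a match were not analysed.

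The tapetum list summed to 4.02 to 4.49 TPM in heat and 2.66 to 3.38 TPM in control, with ocl4 at 0. The difference came with ms32 (GRMZM2G163233), a transcription factor gene of the tapetum, which had 3.17 ± 0.111 TPM in heat and 1.62 ± 0.222 TPM in control (log2 fold change 0.67, SE 0.12, limma adjusted p = 0.0021). With the lane as a covariate its log2 fold change was 0.63 and the call was lost (limma adjusted p = 0.0602). The green tissue list summed to 1.46 to 1.91 TPM in heat and 1.63 to 2.35 TPM in control, with cab48 and psad1 at 0. The female gametophyte list summed to 0.420 to 1.02 TPM in heat and 0.624 to 0.683 TPM in control, with es1, ebe1 and ebe2 at 0. The endosperm and embryo list summed to 3.70 to 5.02 TPM in heat and 3.50 to 5.70 TPM in control, nearly all of it pbf1, with 5 of its 10 models at 0. The part of such cells in the values of the members was not tested.

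**Figure D2:**
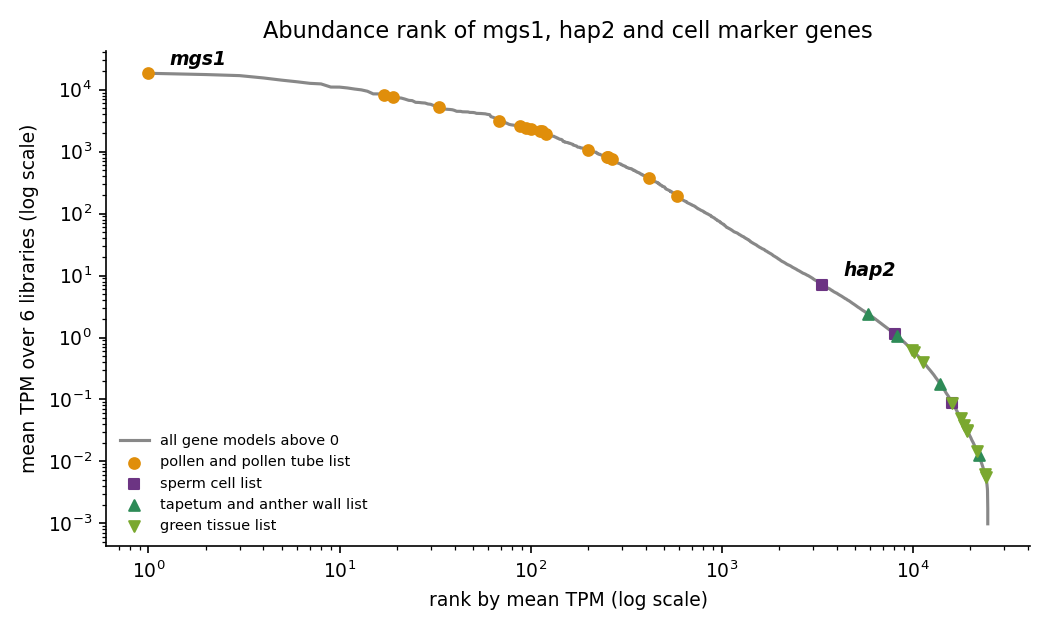
Mean TPM over the 6 libraries against abundance rank, both on log scales, for all gene models above 0 (line) and for the marker lists (symbols). mgs1 stands at rank 1, the rest of the pollen list lies at rank 17 to 580, and hap2 lies at rank 3362, above each tapetum and green tissue marker shown.

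The distance between the members was measured within each library, where scaling cancels in plain TPM ratios but not fully once 1 is added. mgs1 exceeded hap2 by 2265, 2589 and 2635 times in heat replicates 1, 2 and 3, and by 2546, 3199 and 2417 times in control replicates 1, 2 and 3, in TPM. The lowest ratio was in heat replicate 1 and the highest in control replicate 2, which are the libraries where hap2 was highest and lowest. On log2(TPM + 1), hap2 over mgs1 averaged -11.10 ± 0.108 in heat and -11.20 ± 0.188 in control (SD, n = 3 each). The difference of 0.10 was smaller than the control SD (exact permutation test, two-sided, p = 0.6). In reads, which weight a gene by its length, the same distance was 464 to 540 times in heat and 495 to 656 times in control. By reads mgs1 ranked 8 to 10 in heat and 10 to 12 in control, below GRMZM2G129064 in every library.

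The main comparison asked whether either transcript differed after heat at the tetrad stage. mgs1 averaged 18441 ± 568 TPM in heat and 18389 ± 290.3 TPM in control (SD, n = 3 each). Its log2 fold change was 0.0037 (SE 0.047, limma adjusted p = 0.968), with a 95% interval from -0.099 to 0.11, that is from 0.933 to 1.08 times on TPM + 1. hap2 averaged 7.42 ± 0.555 TPM in heat and 6.86 ± 0.937 TPM in control (SD, n = 3 each). Its log2 fold change was 0.10 (SE 0.12, limma adjusted p = 0.596), with a 95% interval from -0.16 to 0.36, that is from 0.897 to 1.29 times. Neither passed the threshold of 0.05, which does not show that the groups were alike beyond these intervals. Of all 8615 genes tested, 20.2% passed.

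The sign of the mgs1 difference was not fixed by the data. Scaling by median ratios gave -0.055, as against 0.0037 on the TPM as deposited. Scaling to a total that left out the 100 most abundant genes, mgs1 among them, gave -0.060. Within lanes 3, 4 and 5, heat replicate 3 against the 3 controls gave -0.020 for mgs1 (SE 0.078, limma adjusted p = 0.910) and 0.012 for hap2 (SE 0.17, limma adjusted p = 0.978). The hap2 estimate was positive in all 17 alternatives, from 0.0015 without control replicate 2 (limma adjusted p = 0.996) to 0.16 without control replicate 3. Other filters and the replicate block cannot change this estimate, so their sign was fixed in advance. The SEs within lanes 3, 4 and 5 rest on the spread of the controls alone, on the assumption that the single heat library varies as they do. The fit with the lane as a covariate takes its estimates from the same libraries and gave the same log2 fold changes. The other lanes held heat libraries alone.

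**Figure D3:**
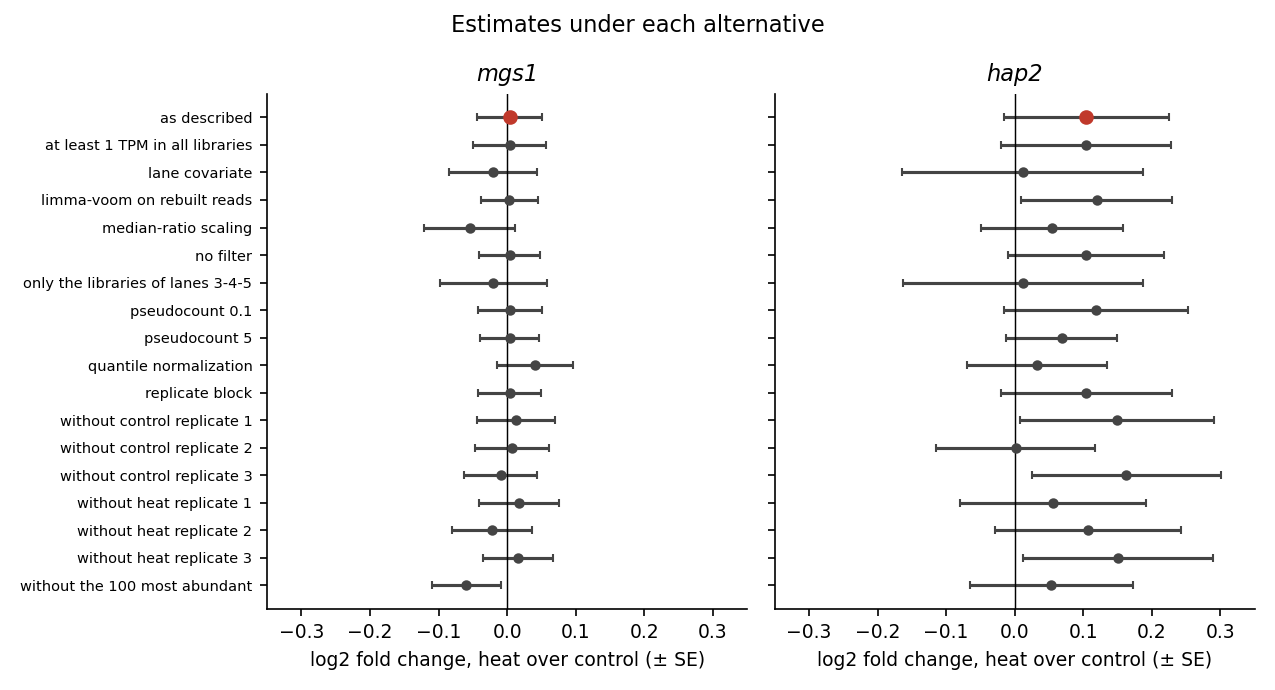
Log2 fold change of heat over control for mgs1 (left) and hap2 (right) under each processing alternative, with bars for ± SE and the value of the fit as described in red. The mgs1 estimates lie between -0.060 and 0.041 on both sides of 0, and the hap2 estimates between 0.0015 and 0.16.

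The steadiness of both transcripts was described by the coefficient of variation (CV, SD over mean) across the 6 libraries. It was computed on TPM as deposited, and steadiness under other scalings was not tested. For mgs1 it was 2.20%, lower than for 12 of the other 13 tested gene models whose mean lay within 2-fold of its own. Those 14 models ran from 2.09% to 20.6% with a median of 6.04%, and the lowest was that of GRMZM2G390896. Among all 8615 tested genes mgs1 had rank 17 from the steadiest, where the median CV was 16.1%. Within groups alone the CV of mgs1 was 2.45%, again rank 2 of 14.

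The spread of mgs1 was still wider than counting error. Counting alone would give a CV of 0.180% to 0.221% at its read numbers. The 95% Poisson interval of heat replicate 2, from 19017 to 19178 TPM, lay above those of the other 5 libraries.

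For hap2 the CV was 10.6%, rank 655 of the 2538 tested gene models within 2-fold of its level, whose median was 14.3%. Within groups it was 10.8%, rank 1131 of 2538, close to the median of 11.5%. Counting alone would give 4.10% to 5.14% at its read numbers. The interval of control replicate 2, from 5.22 to 6.38 TPM, lay below those of control replicate 1, from 6.74 to 7.93 TPM, and control replicate 3, from 6.79 to 8.21 TPM. Intervals cover counting error only, since reads without molecular tags are not independent molecules. On TPM as deposited, the size of the log2 fold change was the smallest of the 14 models at the level of mgs1. The median size there was 0.066. At the level of hap2 it had rank 768 of 2538, where the median was 0.18.

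**Figure D4:**
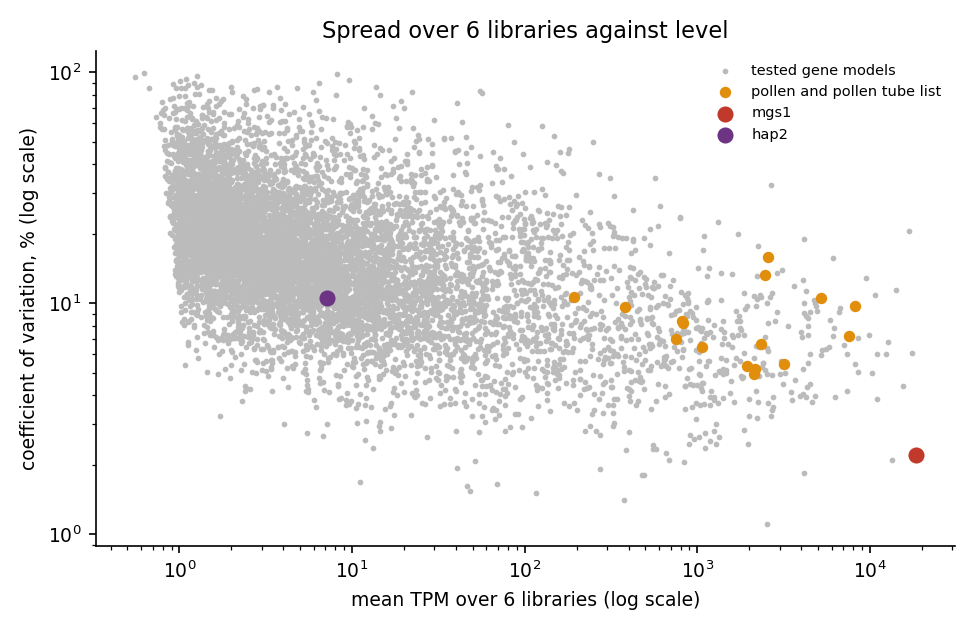
Coefficient of variation over the 6 libraries against mean TPM, both on log scales, for the 8615 tested gene models (grey), the pollen and pollen tube list (orange), mgs1 (red) and hap2 (purple). mgs1 lies at the low edge with 2.20%, and hap2 at 10.6% lies within the cloud of genes at its level.

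The neighbours of mgs1 in abundance were close to it. GRMZM2G175243, at rank 2, had 17164 ± 1325 TPM in heat and 17951 ± 790.5 TPM in control, and its range of 15993 to 18602 TPM overlapped that of mgs1, so their order is not settled by the spread. GRMZM2G172664, at rank 3, had 14424 ± 1731 TPM in heat and 19332 ± 3041 TPM in control. It fell (log2 fold change -0.42, SE 0.10, limma adjusted p = 0.0130). Of the 10 most abundant gene models it alone passed the test, where 20.2% of all tested genes did. With the lane as a covariate its log2 fold change was -0.37 and the call was lost (limma adjusted p = 0.174). The rest of the 10, from GRMZM2G166044 at 15474 TPM through GRMZM2G095895, GRMZM2G390896, GRMZM2G041448, GRMZM2G129064 and GRMZM2G160113 to GRMZM2G153368 at 11012 TPM, had no library as high as the lowest mgs1 value.

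Around hap2 the order was tight. The 3 gene models above it, GRMZM2G049758, GRMZM5G828945 and GRMZM2G050658, and the 3 below it, GRMZM2G391364, GRMZM2G070192 and GRMZM5G893381, had means between 7.12 and 7.14 TPM, and each overlapped hap2 in its range. The test was passed by 20.2% of all tested genes and, among these 6, by GRMZM5G828945 alone. It had 6.07 ± 0.794 TPM in heat and 8.22 ± 0.739 TPM in control (log2 fold change -0.39, SE 0.12, limma adjusted p = 0.0382). Its call was lost with the lane as a covariate, where the log2 fold change was -0.55 (limma adjusted p = 0.0670). None of the 6 carries a gene name.

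Several other pollen markers passed the test that mgs1 did not pass. Of 16 tested besides mgs1, 7 passed and 9 did not, which is 43.8% called, where 20.2% of all tested genes were. Their difference from mgs1 was not tested, apart from that of mgs2 below. Their median log2 fold change was 0.097, against 0.039 over all tested genes. pme1 fell, with 7541 ± 340.4 TPM in heat and 8941 ± 159 TPM in control (log2 fold change -0.25, SE 0.052, limma adjusted p = 0.0048). prf1 rose, with 2851 ± 358 TPM in heat and 2262 ± 142 TPM in control (log2 fold change 0.33, SE 0.082, limma adjusted p = 0.0132). The other calls besides mgs2, named after their values were seen, were rises of the profilin gene prf3 (GRMZM5G876285; 0.32), stk1 (GRMZM2G165433; 0.19) and the Rop GTPase gene rop2 (GRMZM5G846811; 0.26), and a fall of the calcium-dependent kinase gene cdpk1 (GRMZM2G115518; -0.25), each a log2 fold change. With the lane as a covariate pme1 alone of the 7 kept its call (log2 fold change -0.30, limma adjusted p = 0.0210). The log2 fold change with the lane was 0.31 for prf3, -0.28 for cdpk1, 0.23 for rop2, 0.25 for prf1 and 0.13 for stk1 (limma adjusted p from 0.0545 to 0.412). For prf2 the levels were 7894 ± 373 TPM in heat and 7183 ± 473 TPM in control (limma adjusted p = 0.136), and for EXPB9 3100 ± 186 TPM in heat and 3242 ± 158 TPM in control (limma adjusted p = 0.504). The share of genes whose libraries did not overlap between groups was 36.5% of all tested genes and 7 of 17 in the pollen list, and neither mgs1 nor hap2 was among them.

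**Figure D5:**
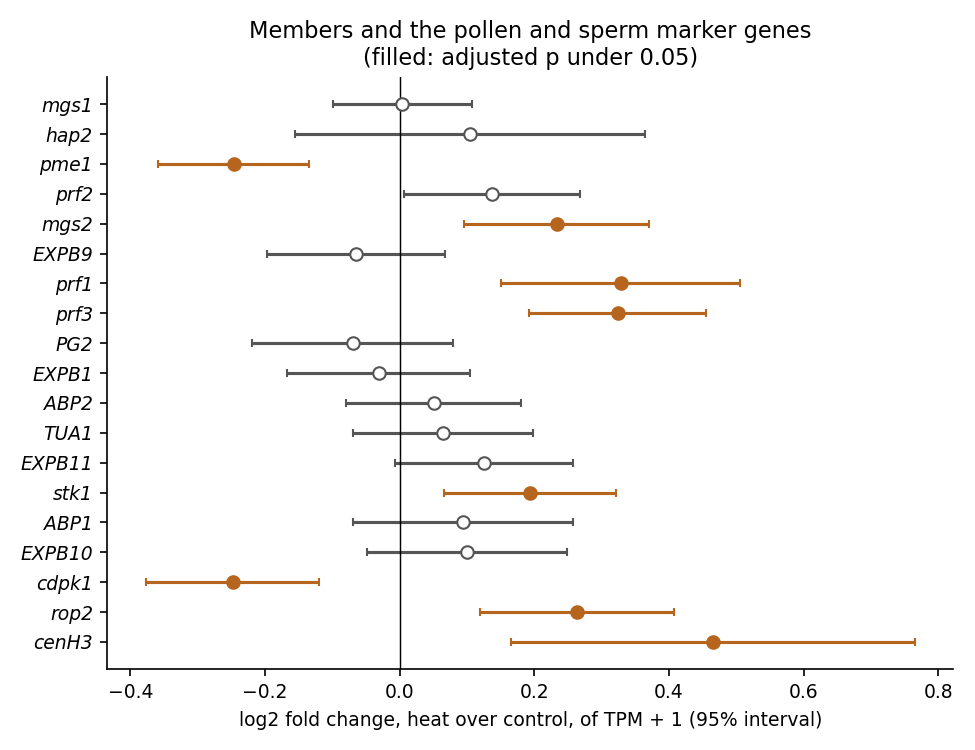
Log2 fold change of heat over control on TPM + 1 with its 95% interval from limma, for mgs1, hap2 and the tested genes of the pollen and sperm lists, filled where the adjusted p is under 0.05. mgs1 sits at 0.0037 with the narrowest interval of those shown, while mgs2 (0.23) and cenH3 (0.47) lie to the right of 0. The cenH3 model entered the test only through its heat libraries.

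mgs2 carries the same name as mgs1 with another number, and it passed the test. It had 6082, 5477 and 5346 TPM in heat replicates 1, 2 and 3, against 4861, 4498 and 5018 TPM in control replicates 1, 2 and 3, so all heat libraries lay above all controls. It rose, with a log2 fold change of 0.23 (SE 0.063, limma adjusted p = 0.0209). The call held in 9 of 17 alternatives and was lost with the lane as a covariate (0.16, limma adjusted p = 0.314). The ratio of mgs1 to mgs2 within a library was 2.98, 3.49 and 3.39 in heat and 3.83, 4.11 and 3.60 in control. The log2 ratio of mgs2 over mgs1 was 0.23 higher in heat than in control (exact permutation test, two-sided, p = 0.1, the smallest that 3 libraries against 3 allow), a pair chosen after its values were seen. Whether reads of these genes could be exchanged in mapping was not tested.

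In the sperm list the cenH3 model GRMZM2G157596 was higher in heat, and its difference from hap2 was not tested. It reached 1 TPM in the heat libraries alone and so entered the test only through the group where it was high. It had 1.14, 1.90 and 1.39 TPM in heat replicates 1, 2 and 3, against 0.745, 0.784 and 0.804 TPM in control replicates 1, 2 and 3, from 18 to 40 reads per library. The log2 fold change on TPM + 1, a scale that understates it at this level, was 0.47 (SE 0.14, limma adjusted p = 0.0315). The call held in 8 of 17 alternatives. It was lost with the lane as a covariate, where the log2 fold change was 0.42 (limma adjusted p = 0.254). Reads of this model and of GRMZM2G158526, which carries the same name, may not be separable.

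Genes with the most similar profile were sought by the Pearson correlation of log2(TPM + 1) over the 6 libraries among 2826 tested gene models with at least 10 TPM on average, as a description, since the points share depth and lanes. For mgs1 these were GRMZM2G703173, GRMZM2G434252, GRMZM2G045106, GRMZM2G070475 and GRMZM2G160316, with r from 0.973 to 0.998. All 5 were highest in heat replicate 2, as mgs1 was, at means of 10.4 to 26.4 TPM. GRMZM2G703173, for example, had 19.1, 30.2 and 19.2 TPM in heat replicates 1, 2 and 3 and 24.6, 23.0 and 18.4 TPM in control replicates 1, 2 and 3, a range of 1.64-fold against 1.06-fold for mgs1. For hap2 they were GRMZM2G171068, GRMZM2G451806, GRMZM2G103382, GRMZM2G111224 and GRMZM2G053261, with r from 0.983 to 0.997. All 5 were lowest in control replicate 2 and highest in heat replicate 1, as hap2 was. GRMZM2G103382, the most abundant of them, had 260.1, 249.7 and 237.9 TPM in heat replicates 1, 2 and 3 and 248.9, 215.7 and 257.5 TPM in control replicates 1, 2 and 3. None of the 10 passed the test between heat and control, where 20.2% of all tested genes did. As they were picked in these libraries for following members that did not pass, this was close to fixed in advance. The same holds for their shared highest and lowest libraries.

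On the assembly of the name table, no protein-coding gene among the 2 nearest on either side overlaps mgs1 or hap2. The closest neighbours of hap2 were nearly silent, with GRMZM2G112839 at a mean of 0.112 TPM on one side and GRMZM2G033937 at 0 in all libraries on the other. Beside mgs1, isp1 (GRMZM2G023194) had a mean of 17.6 TPM, and the gene on the other side has no gene model matched in the table.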

How the data were processed

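The deposited table holds TPM of 39625 gene models, made by the authors and used as deposited. The submitters' processing notes name STAR 2.5.2a, Trimmomatic 0.35, DESeq2, featureCounts and FastQC, and the build B73 RefGen_v3. Their roles, the strand setting and the handling of reads with several positions are not given in the sources used here. Lane numbers came from the sample sheets deposited by the authors. Names came from a RefSeq table of another assembly, Zm-B73-REFERENCE-NAM-5.0, so no coordinates are given.

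Whole reads and gene lengths were rebuilt from ratios of TPM for all 24654 gene models above 0 (tolerance 0.01 reads) and checked on simulated data. The 8615 genes that reached 1 TPM in 3 or more of the 6 libraries entered the test, run with limma 3.58.1 (R 4.3.3) on the log2(TPM + 1) values (variance trend, two-sided, Benjamini-Hochberg adjustment, threshold 0.05). The test was also run on simulated data. Fold changes on this scale understate those of low genes. Single values were compared by exact permutation tests in scipy 1.17.1. Each pair of libraries within a group was compared by chi-square on reads (smallest ratio to degrees of freedom 4.59).

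The members and lists were chosen with earlier results of these data known. Besides the members, genes named were the 10 most abundant, the 3 on either side of hap2 by rank, the 5 most correlated with each member and up to 6 most abundant of each list. A planned search for similar proteins was not run. The marker lists were matched by symbol or synonym, and 4 matches to another gene of the same symbol were left out after the matches were seen: the auxin-binding abp1, a second CDPK1, the aquaporin TIP1-2 under tip2 and Pep1. P-values set the difference between the groups against the spread between these libraries. Alternatives changed the pseudocount, filter, scaling, covariates, test or libraries.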

Additional observations from a re-analysis of the deposited data

How the results depend on the processing

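Neither member passed the threshold in any of 17 alternatives, where the limma adjusted p ran from 0.453 to 0.974 for mgs1 and from 0.487 to 0.996 for hap2. The direction of hap2 held in all 17, though other filters and the replicate block cannot change it and the lane alternatives share an estimate. That of mgs1 turned with the lane as a covariate (-0.020), with the same estimate within lanes 3, 4 and 5, an alternative added after the data were seen (-0.020), with median-ratio scaling (-0.055) and without the 100 most abundant genes (-0.060). With single libraries removed, the log2 fold change ran from -0.022 to 0.017 for mgs1 and from 0.0015 to 0.16 for hap2, and the number of genes past the threshold from 1218 to 1820. Of all tested genes 1739 passed, against 654 with the lane as a covariate and 994 within lanes 3, 4 and 5. The mgs1 share of TPM differed by 0.0052 percentage points between heat and control. Set against a smaller total, which left out the 100 most abundant genes and so mgs1 itself, it differed by -0.167. As a share of all TPM it differed by -0.028 to 0.023 with single libraries removed. With single libraries removed the hap2 to mgs1 log2 ratio differed by -0.0058 to 0.17 and the hap2 rank by -109 to 52. The cause was not tested. Same-numbered libraries deviated together with r = 0.12, 0.13 and -0.050, against -0.25 to 0.16 for libraries of different numbers. These few values cannot settle whether the numbers pair them. A replicate block over balanced groups leaves the log2 fold changes of mgs1 (0.0037) and hap2 (0.10) as they were. With it 1785 genes passed. Read numbers of hap2, from 379 to 594, limit its precision.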
